A study of Mus musculus with 9 samples.

Results

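The 6 spinal cord libraries from mice with a nerve injury were set against the 3 libraries from sham mice, gene by gene, and the genes that lay on the same side of sham in both injured groups were described. The 6 comprised 3 libraries of the group SNI and 3 of the group SNI+LDN193189, so all 9 of the 9 libraries in the series took part. All were made from whole spinal cord of male mice, and the labels name no strain, genotype, age, cord segment, side, time after surgery, dose, route or vehicle. SNI is the usual short form of spared nerve injury, a model of neuropathic pain made by cutting some branches of the sciatic nerve and sparing another, and sham surgery exposes the nerve without cutting it. LDN193189 is a small molecule that blocks the kinases of BMP type I receptors such as ACVR1, and only 1 of the injured groups received it. No group received it without injury, so an effect of the compound on uninjured cord was not measured. Pooling asks what the injured cords had in common, whatever the compound did.

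The columns of the deposited count table are named by a letter and a number. S was read as sham, N as SNI and L as SNI+LDN193189. If S stood for SNI instead, the directions given here would not hold. Sprr1a, a gene that injured neurons switch on, was at 0.161, 0.235 and 0.215 CPM in sham, 6.62, 15.1 and 23.0 in SNI and 6.38, 17.4 and 0.688 in SNI+LDN193189, values that were looked at as a check and not to assign the columns. The labels number the replicates as biosamples without saying that each came from an animal of its own, so p-values measure the spread between these libraries, which may be partly technical.

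A cut peripheral nerve is felt in the cord in several ways. Sensory and motor neurons whose axons are cut start a regeneration program led by transcription factors such as ATF3. Their endings release factors that activate microglia, the resident macrophages of the cord, which use the receptors CSF1R and CX3CR1 and make most of its complement C1q. Astrocytes react more slowly, and the peptides carried by pain fibres, such as substance P, can change in amount. Cord tissue taken from an animal can also carry attached dorsal root, ganglion, membrane, blood or muscle, each with marker genes of its own.

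Levels are given in CPM, counts relative to the library total scaled by TMM factors, in the order of replicates 1, 2 and 3. Fold changes are log2 values of the injured libraries against sham, with both injured groups weighted equally, their standard error (SE) and a p-value from the edgeR quasi-likelihood test adjusted by Benjamini-Hochberg over 18245 genes. A gene was called below an adjusted p of 0.05. A gene was counted as separated when all 6 injured libraries lay above, or all below, all 3 sham libraries. Libraries held 33432776 to 37190467 counts, so depth differed by a factor of 1.11 at most. Markers of cord cells were high in every library, with Snap25 of synapses at 2501 to 3033 CPM, Mbp of myelin at 10574 to 12739 and Gfap of astrocytes at 981 to 1537.

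Each sham library stood apart from the others in markers of some other tissue. Sham replicate 1 held 1138 CPM in the sum over 14 skeletal muscle genes, where the other 8 libraries held 84.6 to 124. Sham replicate 2 held 90.4 CPM over 13 genes of dorsal root ganglion neurons, against 32.7 to 44.3 in the others. Sham replicate 3 held 6711 CPM over 18 Schwann cell and nerve root genes, 1467 over 18 fibroblast genes and 401 over 12 lymphocyte and neutrophil genes. In the injured libraries these 3 sums ran from 406 to 2137, from 514 to 759 and from 16.1 to 61.9. Sham replicate 2 also lay above every injured library in the sums of Schwann cell and fibroblast genes, at 2464 and 872 CPM. The Schwann markers Prx and Pmp2 were above 0 in every library, and of the muscle markers Myh4 was at 0 in SNI replicate 3. Pairs of sham replicates also differed more than pairs of injured replicates, with a chi-square per degree of freedom of 17.1 to 32.4 against 5.30 to 10.6. Their part in the differences below was not tested, and values without a library are given for pooled medians of whole lists and pooled fold changes above 0.1 in size that leaving it out moved by more than 1.5 times. Several smaller ones moved by that much, or turned, with a single library left out, and not all of these values are given.

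**Figure D1:**
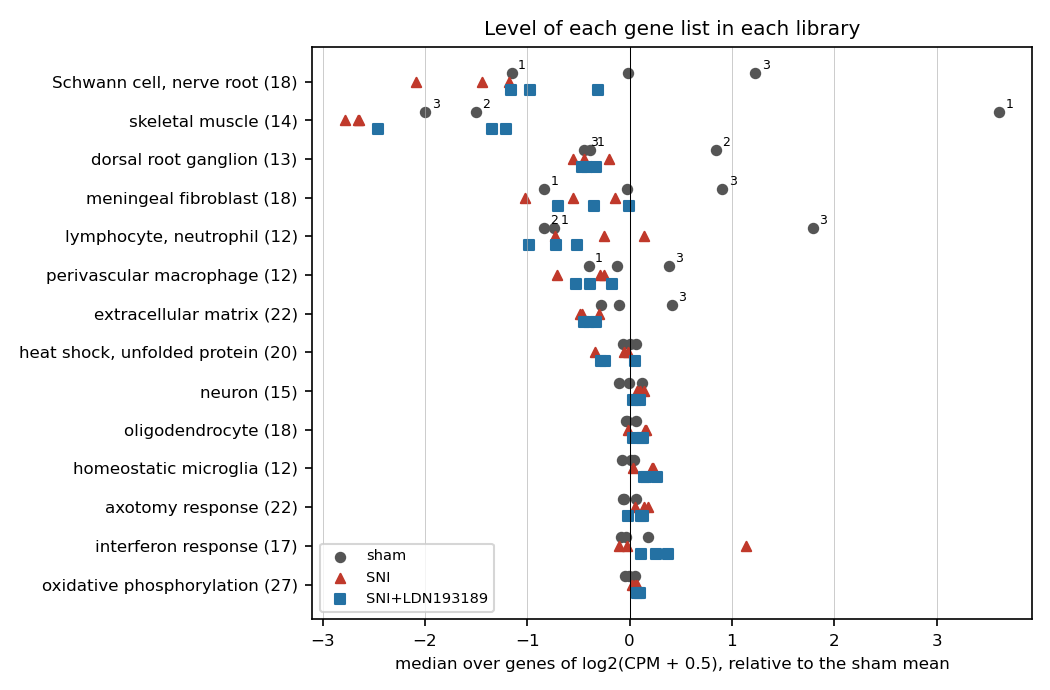
Level of 14 gene lists in each library: the median over the list's tested genes of log2(CPM + 0.5) minus the mean of the 3 sham libraries, with the number of genes in brackets. Points are libraries, and numbers beside grey points name the sham replicate. Muscle, ganglion and nerve root genes spread the sham libraries far apart, while lists of cord cells lie within a narrow band around 0.

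Few single genes passed the test. In the injured libraries against sham, 0 genes were called higher (0% of the genes tested) and 1 was called lower (0.00548%), the matrix protease gene Mmp14. At an unadjusted p under 0.05 edgeR had 593 genes higher (3.25%) and 879 lower (4.82%), 1472 in all (8.07%), where 5% of the genes tested is 912.25. DESeq2 called 12 higher and 49 lower, of which 32 were separated, and limma-voom called 0 higher and 2 lower, Aqp1 and Mmp14. Leaving out sham replicate 1 raised the edgeR count to 60 lower and 1 higher. Leaving out sham replicate 2 raised the number of genes at an unadjusted p under 0.05 from 1472 to 2499.

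SNI and SNI+LDN193189 lay on the same side of sham in 13179 genes (72.2%), 6421 of them higher (35.2%) and 6758 lower (37%). Both comparisons use the same 3 sham libraries, so any sham library that stands apart shifts both in the same direction. Separation of all libraries was rarer, at 304 genes higher (1.67%) and 238 lower (1.3%), 2.97% in both directions together. With 6 libraries against 3, some genes separate by chance alone. The share expected that way was not computed, so separation by itself does not mark a gene as different. The separated higher genes had a median of 0.17 on the log2 scale, a 1.13-fold difference, and the separated lower genes one of -0.34, or 1.27-fold lower. Over all genes tested the median was -0.0038, with 48.7% of the genes above 0 and 51.3% below, the shares against which counts of higher and lower list members stand. More than 1 log2 unit separated the groups in 28 of the higher and 30 of the lower genes. The higher genes were more abundant, with a median of 32.5 CPM against 15.7 for all genes, and the lower genes less so, with a median of 9.44 CPM. Set against sham alone, SNI had 0 genes called, with 2.02% higher and 3.31% lower at an unadjusted p under 0.05 by edgeR. SNI+LDN193189 had 1 called higher (0.00548%) and 2 lower (0.011%), with 4.07% and 4.49% at an unadjusted p under 0.05. Between the injured groups 0 were called higher and 1 lower, with 1.69% and 2.19% at that unadjusted p. Of the separated genes, 9 of the 304 and 5 of the 238 differed between the injured groups at an unadjusted p under 0.05 by edgeR. These counts also depended on the tool. Against sham, DESeq2 called 4 genes higher and 20 lower in SNI and 34 higher and 38 lower in SNI+LDN193189. Between the injured groups it called 2 higher and 3 lower.

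**Figure D2:**
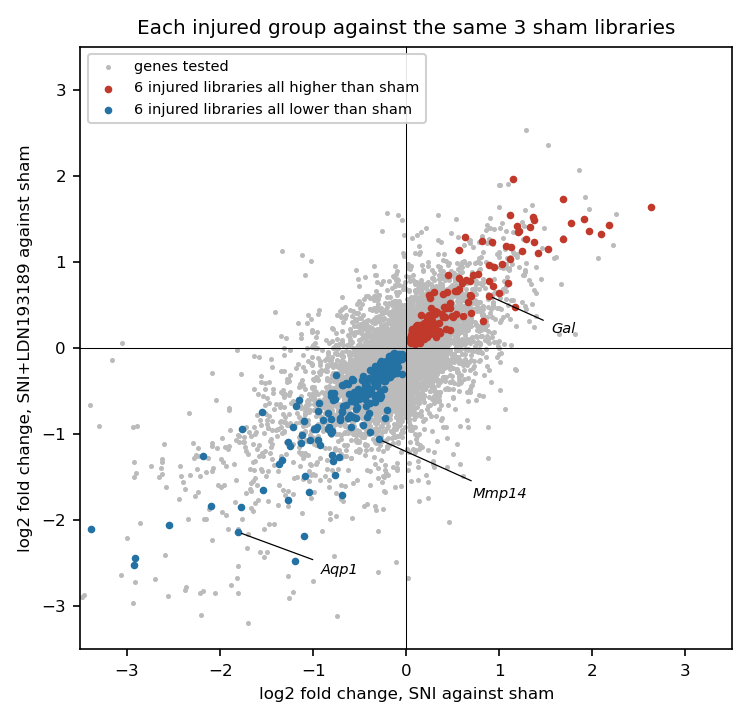
Log2 fold change of each tested gene in SNI against sham (horizontal) and in SNI+LDN193189 against sham (vertical). Both axes contain the same 3 sham libraries, which alone tilts the cloud along the diagonal. Red and blue points are the 304 and 238 separated genes, and 30 genes, 1 of them separated, lie outside the axes.

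Mmp14 fell in the injured libraries. It encodes a membrane-anchored protease that cleaves collagen and activates other matrix proteases, and lies on chromosome 14 at 54431598 to 54442456 in GRCm38.p6. It stood at 35.9, 43.0 and 38.7 CPM in sham, 33.8, 33.6 and 28.6 in SNI and 21.0, 16.8 and 18.5 in SNI+LDN193189. The SNI libraries lay just under the lowest sham library and the SNI+LDN193189 libraries well under all others, with no overlap between any of the 3 groups. The log2 fold change was -0.68 (SE 0.0823, adjusted p = 0.00923), made up of -0.29 in SNI and -1.06 in SNI+LDN193189. Each group against sham had an adjusted p by edgeR of 0.927 in SNI and 0.000274 in SNI+LDN193189, so SNI alone did not pass. The injured groups also differed from each other, by -0.77 in SNI+LDN193189 against SNI. Without sham replicate 2 the adjusted p was 0.0565, without SNI+LDN193189 replicate 3 it was 0.0578, and with the 6 injured libraries fitted as a single group it was 0.588.

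The other 11 lower genes with the smallest p among the separated ones did not pass. Aqp1, which encodes a water channel found in choroid plexus, red cells and small sensory fibres, stood at 5.31, 3.46 and 2.69 CPM in sham, 1.58, 0.969 and 0.720 in SNI and 0.517, 1.22 and 0.860 in SNI+LDN193189. Its lowest sham value lay well above its highest injured value, and the log2 fold change was -1.98 (SE 0.295, adjusted p = 0.082). It was called without sham replicate 1, 3, SNI replicate 1 or SNI+LDN193189 replicate 2, with adjusted p-values of 0.0373, 0.0284, 0.0282 and 0.0352. H19, an imprinted RNA that is abundant in fetal tissue and muscle, was at 6.94, 1.88 and 3.44 CPM in sham, 0.669, 0.861 and 1.33 in SNI and 1.03, 1.31 and 1.09 in SNI+LDN193189, or -1.97 (SE 0.345, adjusted p = 0.218). Thbs4, a thrombospondin of the matrix that also binds calcium channel subunits, had 1.56, 5.45 and 2.31 CPM in sham, 0.486, 0.538 and 0.554 in SNI and 0.402, 1.31 and 0.516 in SNI+LDN193189 and a log2 fold change of -2.30 (SE 0.419, adjusted p = 0.266). Cyp2j13, a cytochrome P450 gene, was at 0.429, 0.586 and 2.02 CPM in sham, 0.0608, 0.161 and 0.0554 in SNI and 0.115, 0.299 and 0.287 in SNI+LDN193189, and its log2 fold change of -2.75 was -1.75 without sham replicate 3.

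The remaining lower genes of this kind were better expressed and differed by less. Sat1, which acetylates spermidine and spermine and so starts the breakdown of polyamines, was at 79.8, 77.0 and 88.9 CPM in sham, 69.4, 64.5 and 64.7 in SNI and 66.6, 59.2 and 64.8 in SNI+LDN193189, a log2 fold change of -0.34 (SE 0.0562, adjusted p = 0.0925). Mpdz, a scaffold of tight junctions with many PDZ domains, was at 94.8, 103 and 116 CPM in sham, 84.7, 84.5 and 78.7 in SNI and 86.6, 77.1 and 81.5 in SNI+LDN193189, or -0.35 (SE 0.0603, adjusted p = 0.0925). In both genes the injured groups lay at the same level, under every sham library. Osmr, the receptor for oncostatin M, was at 11.5, 13.7 and 14.3 CPM in sham, 9.21, 9.10 and 7.75 in SNI and 8.85, 8.54 and 8.48 in SNI+LDN193189, or -0.60 (SE 0.104, adjusted p = 0.0925). Its values in the injured groups were almost equal, with log2 fold changes of -0.60 and -0.61. Kank1, which organises actin at the cell cortex, was at 44.7 to 50.9 CPM in sham and 27.7 to 41.8 in the injured libraries (-0.43, adjusted p = 0.189), and Diaph3, an actin-nucleating formin, at 5.15 to 7.21 CPM in sham and 3.21 to 4.25 in the injured libraries (-0.76, adjusted p = 0.251). Without sham replicate 1, Sat1, Mpdz, Osmr, Kank1, Diaph3, Thbs4 and Cyp2j13 were among the 60 lower genes called.

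Higher separated genes differed by smaller amounts, and 0 of them passed with edgeR. Lgi3, a secreted protein of neurons and glia, stood at 215, 239 and 211 CPM in sham, 251, 250.02 and 256 in SNI and 262, 266 and 261 in SNI+LDN193189, a log2 fold change of 0.22 (SE 0.046, adjusted p = 0.296). All SNI+LDN193189 libraries were above all SNI libraries, and all of those above sham. Efnb3, ephrin B3 of the cord midline and myelin, was at 222, 244 and 214 CPM in sham, 252, 258 and 246 in SNI and 272, 275 and 273 in SNI+LDN193189, or 0.21 (SE 0.0467, adjusted p = 0.31), in the same order of groups. Arsg, a lysosomal sulfatase, was at 80.7, 88.8 and 80.6 CPM in sham, 96.9, 101 and 96.3 in SNI and 95.5, 94.1 and 101 in SNI+LDN193189 (0.23, adjusted p = 0.296), and here the injured groups overlapped fully. Slc25a33, a carrier of pyrimidine nucleotides into mitochondria, was at 49.4 to 50.2 CPM in sham and 54.7 to 62.1 in the injured libraries (0.24), with sham values that spanned less than 1 CPM. Plbd2, a lysosomal hydrolase, was at 91.7 to 101 CPM in sham and 103 to 121 in the injured libraries (0.22), and Rhog, a small GTPase of phagocytosis and neurite growth, at 43.6 to 52.3 CPM in sham and 53.9 to 61.4 in the injured libraries (0.26). Tmem86a, an enzyme that breaks down lysoplasmalogens, was at 6.43 to 7.74 CPM in sham and 9.06 to 11.1 in the injured libraries (0.45), Them6 at 39.5 to 47.2 CPM in sham and 47.4 to 56.6 in the injured libraries (0.30) and the uncharacterised 1700047M11Rik at 31.8 to 36.7 CPM in sham and 39.9 to 43.7 in the injured libraries (0.25). The adjusted p-values of the 12 higher genes of this rule, which include C1qb, Csf1r and Gal described below, ran from 0.296 to 0.372. DESeq2 called 6 of these 12 and all 12 of the lower genes. The genes were selected by edgeR p and separation in the same counts, so the DESeq2 calls are not a separate check.

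**Figure D3:**
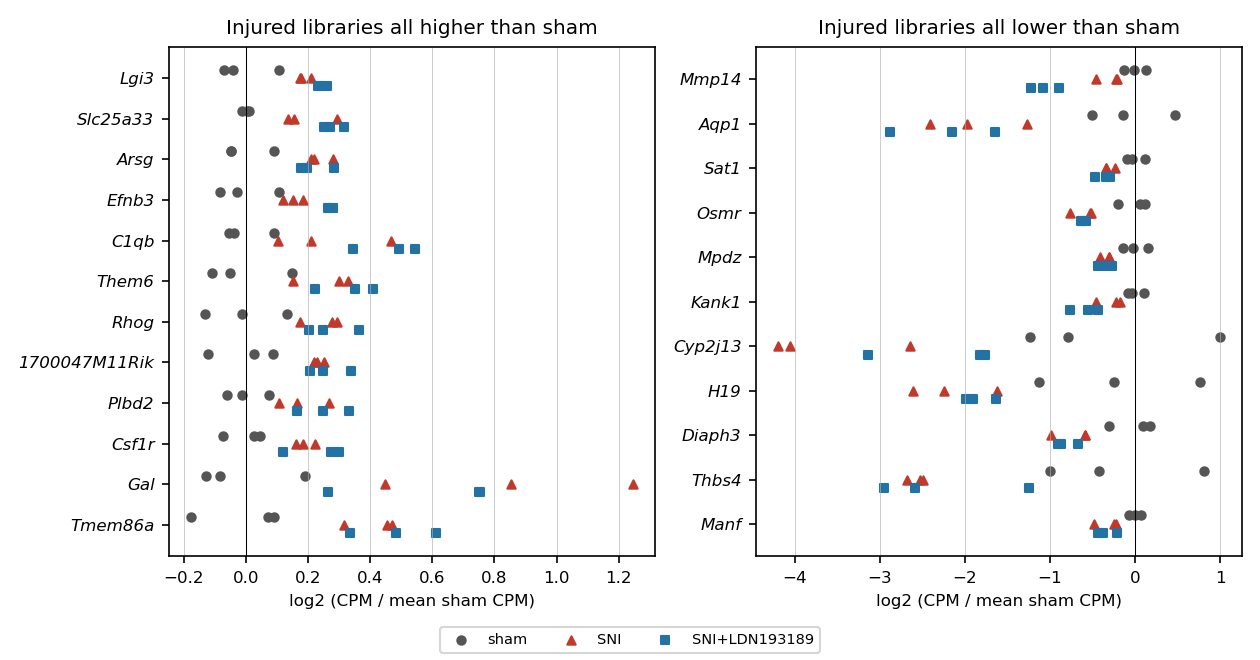
Level of 12 higher (left) and 11 lower (right) separated genes with the smallest p, as log2 of CPM over the mean sham CPM, for each library. The 6 injured libraries lie to the right of sham in the left panel and to the left in the right panel, whose horizontal scale is wider. Of these genes Mmp14 passed the test.

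The genes of the axotomy response, with which neurons answer a cut axon, held large fold differences in few members. Of 25 listed genes 22 were tested, 17 of them higher and 5 lower, with a median log2 fold change of 0.12, or 0.07 without sham replicate 3. At an unadjusted p under 0.05 stood 5 of the higher genes and none of the lower, where 3.25% of all genes tested were higher and 4.82% lower. Sprr1a and Gal, 2 of the 22, were separated higher, against 1.67% of all genes. None of the 22 passed with edgeR, and DESeq2 called Sprr1a. Sprr1a, a cornified envelope protein that regenerating neurons make, had a log2 fold change of 5.74 (SE 1.36, adjusted p = 0.501) with the values given above. The sham libraries lay within 0.161 to 0.235 CPM, and the injured libraries ranged over more than an order of magnitude, from 0.688 CPM in SNI+LDN193189 replicate 3 to 23.0 in SNI replicate 3. Atf3, the transcription factor of the response, was at 1.34, 1.17 and 3.07 CPM in sham, 5.83, 8.61 and 12.2 in SNI and 5.63, 9.80 and 1.146 in SNI+LDN193189, or 1.91 (SE 0.734). Its value in SNI+LDN193189 replicate 3 lay under all sham values, so the groups overlapped through that library. Gal, the neuropeptide galanin, was at 3.06, 3.81 and 3.15 CPM in sham, 4.56, 6.03 and 7.92 in SNI and 5.63, 5.62 and 4.01 in SNI+LDN193189, or 0.75 (SE 0.187, adjusted p = 0.361), and SNI+LDN193189 replicate 3 again had the lowest injured value. The tubulin genes Tubb2b and Tubb3, which neurons need for axon growth, differed by less, with 89.5, 98.1 and 93.0 CPM in sham, 106, 111 and 95.1 in SNI and 112, 110.3 and 114 in SNI+LDN193189 for Tubb2b (0.21) and 342 to 421 CPM in sham and 416 to 454 in the injured libraries for Tubb3 (0.22). SNI replicate 3 lay inside the sham range of Tubb2b, and SNI replicate 2 and SNI+LDN193189 replicate 3 inside that of Tubb3.

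The promoter of Sprr1a is shown because it carries a pair of exact matches to TGANTCA, the site of AP-1 factors such as JUN, partners of ATF3. The window is the 250 bases before the RefSeq start at chr3:92485882-92486131 in GRCm38.p6, on the minus strand, with the matches in capitals, 146 and 116 bases before the start.
Sprr1a: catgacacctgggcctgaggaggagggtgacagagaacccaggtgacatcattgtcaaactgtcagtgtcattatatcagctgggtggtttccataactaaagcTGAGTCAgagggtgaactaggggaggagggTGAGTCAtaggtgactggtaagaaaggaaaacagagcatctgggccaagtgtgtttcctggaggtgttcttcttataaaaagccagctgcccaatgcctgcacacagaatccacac
The motif was present in 6.75% of all 32851 RefSeq windows of this length, read on both strands. Of 25 axotomy genes 20 had a window, with 22 windows in all, and 4 genes held the motif, the others being Anxa2, Il6 and Nts. A match is a description of the letters and not of binding.

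Among peptides and transmitters of the dorsal horn, levels were mostly lower. Of 13 tested genes 10 were lower and 3 higher, with a median of -0.08, and 2 were lower at an unadjusted p under 0.05 against 4.82% of all genes. Tac1, which encodes substance P, was separated, at 29.2, 34.9 and 32.8 CPM in sham, 27.2, 29.1 and 21.8 in SNI and 22.8, 25.5 and 22.9 in SNI+LDN193189, a log2 fold change of -0.38 (SE 0.0879, adjusted p = 0.34). The highest injured library, SNI replicate 2, lay just under the lowest sham library. Sst, somatostatin of excitatory interneurons, was at 70.0, 71.3 and 67.6 CPM in sham, 59.9, 70.8 and 63.1 in SNI and 58.5, 60.3 and 58.3 in SNI+LDN193189 (-0.17), with SNI replicate 2 inside the sham range. Npff, neuropeptide FF, was at 1.52 to 2.63 CPM in sham and 1.03 to 1.86 in the injured libraries (-0.41, or -0.19 without sham replicate 1), with overlapping groups. The median of this list was 0.06 without sham replicate 2, the library that held the ganglion markers.

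Microglial genes stood higher in both injured groups. Of 12 tested homeostatic markers 11 were higher and 10 of those on the same side in both groups, with a median of 0.18 on the log2 scale, and 4 had an unadjusted p under 0.05 against 3.25% of all genes. Csf1r, the receptor for the survival factors CSF1 and IL-34, was at 67.3, 68.2 and 62.7 CPM in sham, 73.9, 77.1 and 75.0 in SNI and 81.3, 71.7 and 79.8 in SNI+LDN193189, a log2 fold change of 0.21 (SE 0.0523, adjusted p = 0.358), and separated. Cx3cr1, the fractalkine receptor, was at 37.8, 40.6 and 33.4 CPM in sham, 42.9, 50.5 and 44.9 in SNI and 39.0, 43.3 and 44.7 in SNI+LDN193189 (0.25), where SNI+LDN193189 replicate 1 lay within the sham range. Trem2, a receptor for lipids and debris, was at 5.70 to 8.09 CPM in sham and 7.32 to 10.1 in the injured libraries (0.36). In whole tissue, more cells of a type and more RNA per cell cannot be told apart. The markers P2ry12, P2ry13 and Gpr34 were listed at 0 in every library and say nothing about the cells.

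The 3 chains of complement C1q, the first component of the classical pathway and in cord a product of microglia, lay in the same direction. C1qb was at 24.2, 26.4 and 23.9 CPM in sham, 26.7, 28.7 and 34.4 in SNI and 34.97, 31.5 and 36.2 in SNI+LDN193189, a log2 fold change of 0.37 (SE 0.0822, adjusted p = 0.316), and was separated. C1qa was at 27.5, 29.7 and 27.2 CPM in sham, 28.6, 33.4 and 34.8 in SNI and 36.8, 31.9 and 33.8 in SNI+LDN193189 (0.24) and C1qc at 24.0, 25.0 and 24.0 CPM in sham, 24.4, 29.0 and 31.7 in SNI and 28.9, 29.3 and 32.0 in SNI+LDN193189 (0.26), each with SNI replicate 1 as the injured library inside the sham range. The genes lie side by side on chromosome 4, from 136880126 for C1qb to 136898844 for C1qa. Of the whole list of 17 complement genes, 11 were lower and 6 higher, with a median of -0.20 that was -0.0085 without sham replicate 3. Among the lower ones was Cd55, which dissolves the enzyme complexes that activate C3, at 19.3, 30.5 and 32.99 CPM in sham, 16.7, 18.1 and 17.1 in SNI and 22.7, 19.1 and 18.1 in SNI+LDN193189 (-0.57), with sham replicate 1 inside the injured range.

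Genes of activated microglia were split between the directions. Of 17 tested, 9 were higher and 8 lower, with a median of 0.0012. Ctsd, a lysosomal protease, was at 336 to 384 CPM in sham and 367 to 432 in the injured libraries (0.13, or 0.08 without sham replicate 3), Lpl, lipoprotein lipase, at 8.15 to 11.9 CPM in sham and 6.45 to 9.91 in the injured libraries (-0.43), and Igf1, a growth factor, at 8.85 to 15.7 CPM in sham and 7.91 to 12.4 in the injured libraries (-0.37). For Igf1 the log2 fold change was -0.12 without sham replicate 3. Astrocyte markers differed little, with a median of 0.06 over 14 genes. Gfap, the intermediate filament that reactive astrocytes increase, was at 992, 1156 and 981 CPM in sham, 1242, 1201 and 1025 in SNI and 1305, 1029 and 1537 in SNI+LDN193189 (0.23 (SE 0.132), adjusted p = 0.692), and the injured values ran from inside the sham range to above it. Ntsr2, a neurotensin receptor of astrocytes, was separated, at 142, 146 and 142 CPM in sham, 163, 156 and 162 in SNI and 156, 155 and 153 in SNI+LDN193189 (0.14). Gja1, connexin 43 of astrocyte gap junctions, was lower in SNI+LDN193189 than in either other group, at 437, 469 and 441 CPM in sham, 469, 444 and 413 in SNI and 386, 384 and 389 in SNI+LDN193189.

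Of 19 tested genes of reactive astrocytes 12 were lower and 7 higher, with a median of -0.18 that was -0.04 without sham replicate 3. Osmr has been described above. S1pr3, a receptor for sphingosine 1-phosphate, was at 7.19, 11.8 and 17.3 CPM in sham, 5.83, 6.67 and 6.12 in SNI and 8.13, 7.92 and 6.96 in SNI+LDN193189 (-0.81) and Steap4, a metal reductase induced by inflammation, at 1.45, 2.70 and 7.37 CPM in sham, 1.155, 1.18 and 1.49 in SNI and 2.47, 0.956 and 1.83 in SNI+LDN193189 (-1.36). In both, sham replicate 3 held the most, as it did of nerve root and fibroblast genes, and sham replicate 1 lay inside the injured range. Their log2 fold changes were -0.46 and -0.47 without sham replicate 3. Sphk1, the kinase that makes sphingosine 1-phosphate, stood higher instead, at 3.16, 3.34 and 3.01 CPM in sham, 5.11, 4.12 and 4.90 in SNI and 3.28, 4.36 and 5.22 in SNI+LDN193189 (0.50), with a narrow sham range reached by SNI+LDN193189 replicate 1.

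**Figure D4:**
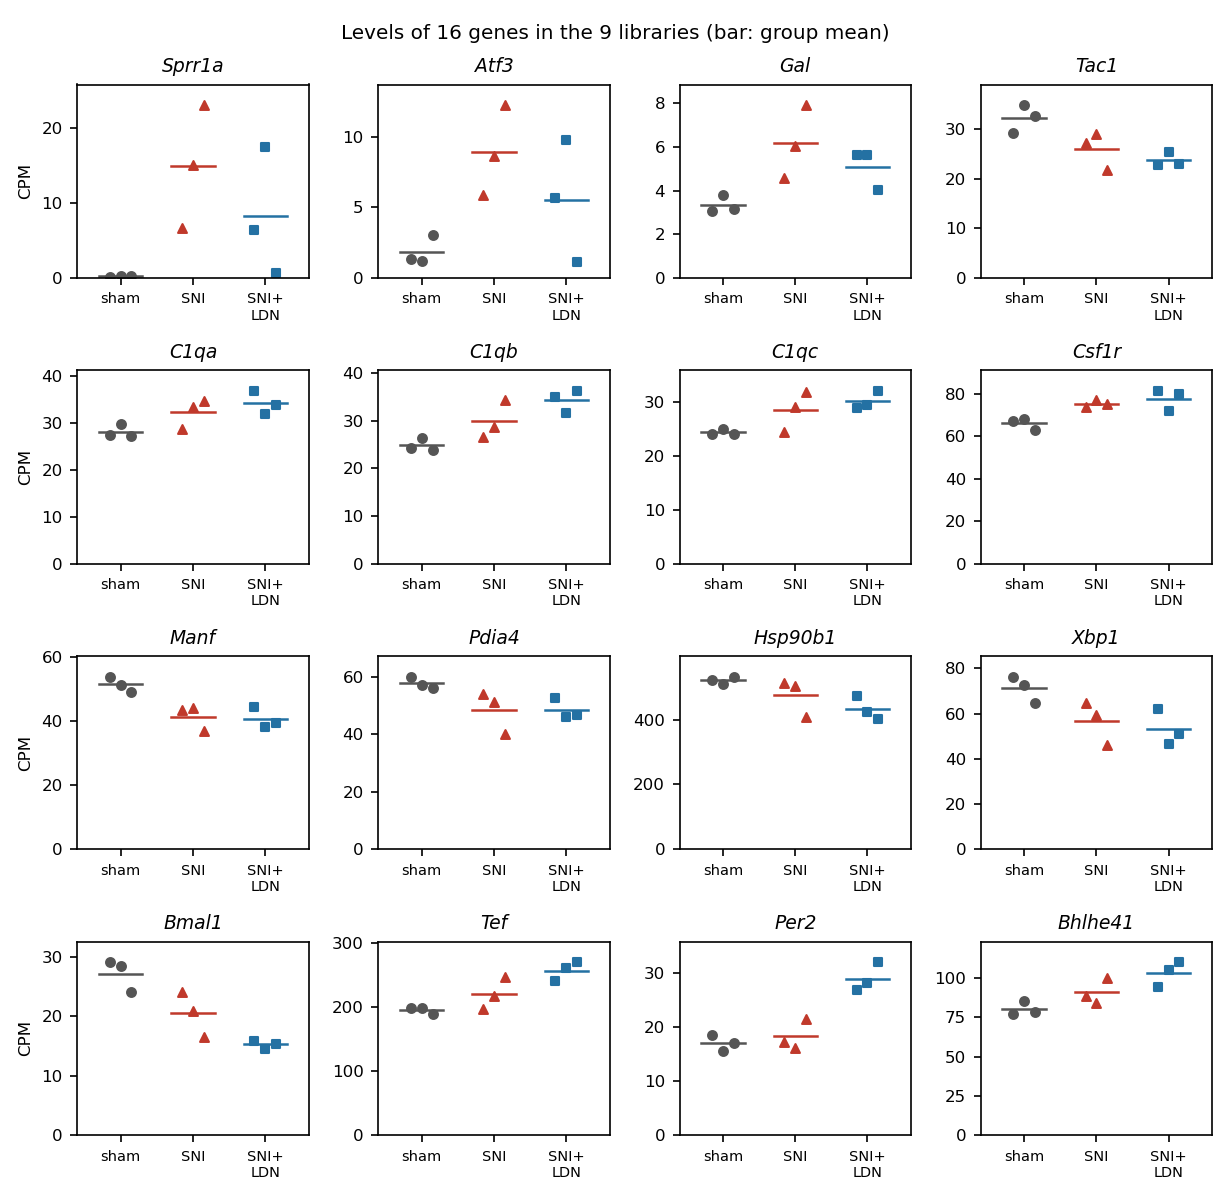
CPM of 16 genes in each library, points for replicates 1 to 3 from left to right and bars for group means. Rows hold genes of axotomy and peptides, microglia and C1q, the unfolded protein response and the clock. Manf, Pdia4, Xbp1 and Tac1 lie under the sham libraries in all 6 injured libraries, and Sprr1a and Atf3 are low in SNI+LDN193189 replicate 3.

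Oligodendrocyte, neuron and energy genes stood slightly higher. Of 18 oligodendrocyte genes 13 were higher and 8 had an unadjusted p under 0.05, against 3.25% of all genes, with a median of 0.13 that was 0.06 without sham replicate 3. Mog, a glycoprotein of the myelin surface, was at 70.2, 77.4 and 62.7 CPM in sham, 78.8, 81.0 and 73.6 in SNI and 81.0, 79.7 and 88.6 in SNI+LDN193189 (0.20, or 0.12 without sham replicate 3), Trf, the iron carrier transferrin, at 1254 to 1278 CPM in sham and 1244 to 1521 in the injured libraries (0.15) and Gpr37, a receptor of myelinating cells, at 171 to 191 CPM in sham and 187 to 208 in the injured libraries (0.15). Opalin, a myelin membrane protein, was at 64.7, 66.1 and 69.5 CPM in sham, 82.0, 87.1 and 93.6 in SNI and 70.2, 79.2 and 61.1 in SNI+LDN193189. All SNI libraries lay above sham, as did SNI+LDN193189 replicates 1 and 2, while replicate 3 lay below it. The injured groups differed at an unadjusted p of 0.00161 by edgeR. Of 15 neuronal genes 13 were higher with a median of 0.08, or 0.04 without sham replicate 3. Uchl1, a neuronal ubiquitin hydrolase, was at 337 to 409 CPM in sham and 394 to 439 in the injured libraries (0.18, or 0.11 without sham replicate 3), and Chat, the acetylcholine enzyme of motor neurons, at 23.5, 26.3 and 23.7 CPM in sham, 26.8, 28.1 and 25.2 in SNI and 29.5, 31.4 and 30.7 in SNI+LDN193189 (0.22). CPM is a share of the library, and sham replicate 3, which held the most nerve root RNA, had the lowest sum over the neuronal genes, 11717 CPM against 12414 to 13802 in the other 8 libraries. The part of this in the differences was not tested.

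Mitochondrial genes held several separated members, with small differences. Of 27 nuclear genes of oxidative phosphorylation 23 were higher, 5 were separated higher (1.67% of all genes were) and 8 had an unadjusted p under 0.05 against 3.25%, with a median of 0.08. Ndufa10, a subunit of complex I, was at 156, 161 and 152 CPM in sham, 171, 164 and 166 in SNI and 173, 180.1 and 162 in SNI+LDN193189 (0.11), and Atp5d and Atp5o of the ATP synthase at 112 to 115 CPM in sham and 117 to 129.7 in the injured libraries (0.11) and at 159 to 169.7 CPM in sham and 170.4 to 182 in the injured libraries (0.10). Of 21 genes of the tricarboxylic acid cycle 19 were higher, against 48.7% of all genes, and 3 separated higher, against 1.67%, with a median of 0.06. Sdhb, of succinate dehydrogenase, was at 90.1, 93.7 and 89.2 CPM in sham, 96.7, 97.5 and 95.8 in SNI and 99.0, 97.9 and 99.6 in SNI+LDN193189 (0.10), Idh3g at 92.9 to 95.3 CPM in sham and 98.6 to 112 in the injured libraries (0.13), Suclg2 at 29.9 to 30.6 CPM in sham and 31.0 to 35.04 in the injured libraries (0.14) and Cs, citrate synthase, at 281 to 308 CPM in sham and 303 to 329.6 in the injured libraries (0.10, or 0.07 without sham replicate 3). Without sham replicate 3 the medians of these lists were 0.05 and 0.04.

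Chaperones of the endoplasmic reticulum stood lower. These genes belong to the unfolded protein response, in which misfolded secretory protein activates the sensors IRE1, ATF6 and PERK and through them folding enzymes. Of 11 genes of that response, all tested, 9 were lower, 6 had an unadjusted p under 0.05 against 4.82% of all genes, and 3 were separated lower against 1.3%. Their median log2 fold change was -0.26. The whole list of 20 heat shock and unfolded protein genes had a median of -0.08. Manf, a secreted survival factor induced by this response, was at 53.8, 51.3 and 49.1 CPM in sham, 43.3, 44.0 and 36.9 in SNI and 44.3, 38.1 and 39.5 in SNI+LDN193189, or -0.33 (SE 0.0676, adjusted p = 0.291). Pdia4, a disulfide isomerase, was at 60.1, 57.4 and 56.1 CPM in sham, 53.9, 51.4 and 40.2 in SNI and 52.8, 46.1 and 46.6 in SNI+LDN193189 (-0.26 (SE 0.0819)), and Xbp1, the factor that IRE1 splices, at 76.4, 72.8 and 64.9 CPM in sham, 64.6, 59.4 and 46.0 in SNI and 62.2, 46.4 and 51.1 in SNI+LDN193189 (-0.38 (SE 0.126)). These 3 genes were lower in all 6 injured libraries than in any sham library. Hsp90b1, the chaperone GRP94, was at 522, 511 and 532 CPM in sham, 513, 505 and 409 in SNI and 473, 425 and 402 in SNI+LDN193189 (-0.20), with SNI replicate 1 inside the sham range. In all of them SNI replicate 3 was the lowest SNI library.

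The promoters of 3 of these genes are shown because they hold an exact ER stress element, CCAAT and CCACG with 9 bases of any kind between them, the sequence that ATF6 binds with NF-Y. Hspa5 and Creld2 were named for their promoters and are not among the genes selected by p. Hspa5, the chaperone BiP, was at 43.8, 42.9 and 39.6 CPM in sham, 37.3, 40.6 and 26.0 in SNI and 35.1, 28.3 and 24.0 in SNI+LDN193189 (-0.41), and Creld2, a secreted folding factor, at 16.9, 15.1 and 16.1 CPM in sham, 15.4, 13.4 and 12.0 in SNI and 15.5, 12.0 and 12.1 in SNI+LDN193189 (-0.26). Windows are the 250 bases before the RefSeq start in GRCm38.p6, for Hspa5 at chr2:34771840-34772089 and Creld2 at chr15:88819396-88819645 on the plus strand and for Hsp90b1 at chr10:86705445-86705694 on the minus strand. Capitals mark the element, which was searched on both strands and reads as CGTGG, 9 bases and ATTGG where it lies on the opposite strand.
Hspa5: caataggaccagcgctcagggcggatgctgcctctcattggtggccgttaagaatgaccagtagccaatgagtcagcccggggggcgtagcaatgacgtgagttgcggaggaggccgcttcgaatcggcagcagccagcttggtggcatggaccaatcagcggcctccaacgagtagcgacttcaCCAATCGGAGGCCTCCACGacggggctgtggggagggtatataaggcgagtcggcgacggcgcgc
Hsp90b1: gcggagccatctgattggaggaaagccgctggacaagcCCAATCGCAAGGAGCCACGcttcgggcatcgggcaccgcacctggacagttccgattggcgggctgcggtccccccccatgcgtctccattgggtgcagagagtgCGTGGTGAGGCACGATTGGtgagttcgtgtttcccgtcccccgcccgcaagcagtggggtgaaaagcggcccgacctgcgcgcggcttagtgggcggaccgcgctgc
Creld2: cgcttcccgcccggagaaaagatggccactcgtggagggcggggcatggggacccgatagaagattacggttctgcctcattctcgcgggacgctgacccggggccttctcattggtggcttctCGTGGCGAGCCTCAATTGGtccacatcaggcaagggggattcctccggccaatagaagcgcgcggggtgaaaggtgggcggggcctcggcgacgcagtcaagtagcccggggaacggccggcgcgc
The match lies 65 bases before the start in Hspa5, 126 in Creld2, and 212 and 107 in Hsp90b1. Among all 32851 windows 37 held the element (0.113%), and among 10 genes of the group with a window 3 did. Pdia4 and Xbp1 had no exact match in their windows, which says only that these letters are not there. Manf had no window and was not searched.

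Clock genes differed from sham in both directions, and mostly more in SNI+LDN193189. The circadian clock is a loop in which BMAL1 and CLOCK or NPAS2 activate genes through E-boxes, and the PER, CRY and BHLHE proteins so made repress them. Of 18 tested genes 10 passed an unadjusted p of 0.05, 6 of them higher and 4 lower, against 3.25% and 4.82% of all genes. Bmal1 was at 29.1, 28.5 and 24.1 CPM in sham, 24.1, 21.0 and 16.6 in SNI and 15.9, 14.6 and 15.4 in SNI+LDN193189, a log2 fold change of -0.62 (SE 0.102, adjusted p = 0.0925), and only SNI replicate 1 touched the sham range. It was called with sham replicate 3 or SNI replicate 1 left out, with adjusted p-values of 0.0359 and 0.0282. On the repressor and output side, Tef, an output factor, was at 199, 199.5 and 189 CPM in sham, 197, 218 and 247 in SNI and 241, 262 and 270.3 in SNI+LDN193189 (0.28 (SE 0.0635, adjusted p = 0.316)) and Bhlhe41, a repressor, at 77.4, 85.2 and 78.2 CPM in sham, 88.8, 84.3 and 99.8 in SNI and 94.3, 105 and 110.0 in SNI+LDN193189 (0.27 (SE 0.0632, adjusted p = 0.347)). Per2, a repressor, was at 18.6, 15.6 and 17.1 CPM in sham, 17.1, 16.2 and 21.5 in SNI and 26.8, 28.1 and 31.9 in SNI+LDN193189, where SNI lay near sham and all SNI+LDN193189 libraries above, with log2 fold changes of 0.10 and 0.76. Per1 was at 23.6, 34.3 and 33.1 CPM in sham, 29.3, 25.9 and 37.5 in SNI and 42.8, 49.3 and 52.1 in SNI+LDN193189, with 0.03 in SNI and 0.66 in SNI+LDN193189. SNI replicate 3 was the SNI library nearest to SNI+LDN193189 in Bmal1, Tef, Per2 and Bhlhe41. The labels do not give the time of day at which tissue was taken.

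The E-box CACGTG stood in the windows of 5 of 16 clock genes with a RefSeq window, Bhlhe41, Ciart, Cry1, Per1 and Tef, against 6.02% of all 32851 windows. The 16 genes had 21 windows, so the count is per gene and the share per window. The windows of Bhlhe41 (chr6:145865421-145865670, minus strand) and of the first of the RefSeq starts of Tef (chr15:81802423-81802672, plus strand) are printed as genes with higher levels in the injured libraries, with the E-box in capitals.
Bhlhe41: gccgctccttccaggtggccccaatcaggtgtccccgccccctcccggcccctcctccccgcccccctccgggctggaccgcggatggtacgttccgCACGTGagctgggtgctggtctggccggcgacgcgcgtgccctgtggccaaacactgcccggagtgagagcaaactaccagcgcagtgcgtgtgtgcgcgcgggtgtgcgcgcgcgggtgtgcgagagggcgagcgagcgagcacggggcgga
Tef: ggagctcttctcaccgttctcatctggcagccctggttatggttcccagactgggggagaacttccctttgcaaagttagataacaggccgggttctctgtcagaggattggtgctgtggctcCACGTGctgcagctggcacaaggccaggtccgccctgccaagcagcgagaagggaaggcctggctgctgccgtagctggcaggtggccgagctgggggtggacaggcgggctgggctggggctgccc
The E-box lies 153 bases before the start in Bhlhe41 and 127 in Tef.

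Extracellular matrix genes were lower without exception. All 22 tested genes were lower, 11 at an unadjusted p under 0.05 against 4.82% of all genes, and 5 were separated against 1.3%. The median log2 fold change was -0.44, and -0.23 without sham replicate 3. Col6a1, a chain of type VI collagen, was at 15.6, 17.1 and 22.1 CPM in sham, 11.4, 13.5 and 14.7 in SNI and 11.8, 14.8 and 12.4 in SNI+LDN193189 (-0.48 (SE 0.119, adjusted p = 0.361)), with the lowest sham library under 1 CPM above the highest injured one. Postn, periostin, was at 2.79, 2.64 and 3.98 CPM in sham, 1.82, 1.83 and 1.27 in SNI and 2.18, 1.55 and 2.29 in SNI+LDN193189 (-0.79 (SE 0.212)). Col6a2, another chain, was at 8.10, 10.6 and 16.8 CPM in sham, 5.65, 5.87 and 6.31 in SNI and 7.47, 8.57 and 7.45 in SNI+LDN193189 (-0.79), with sham replicate 1 inside the injured range, and without sham replicate 3 the difference was -0.45. The summed level of the list was 1563, 1844 and 2364 CPM in sham replicates 1, 2 and 3 and 1434 to 1785 in the injured libraries.

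Genes of nerve root, membranes, ganglion and muscle were lower too, and were highest in single sham libraries. All 18 Schwann cell genes were lower, 14 at an unadjusted p under 0.05 against 4.82% of all genes, with a median of -1.64 that was -0.79 without sham replicate 3. Ngfr, the low-affinity neurotrophin receptor, was at 3.75 to 9.79 CPM in sham and 2.81 to 4.54 in the injured libraries, and Fxyd3, a regulator of the sodium pump, at 0.214 to 2.02 CPM in sham and 0.182 to 0.517 in the injured libraries. Of 18 fibroblast genes 17 were lower, with a median of -0.81 that was -0.07 without sham replicate 3 and -1.22 without sham replicate 1. Dcn, decorin, was at 44.7, 103 and 207 CPM in sham, 21.6, 28.4 and 49.2 in SNI and 70.2, 49.7 and 48.5 in SNI+LDN193189 (-1.45, or -0.78 without sham replicate 3) and Lum, lumican, at 5.68, 11.8 and 18.9 CPM in sham, 3.40, 3.66 and 5.26 in SNI and 8.39, 6.21 and 4.99 in SNI+LDN193189 (-1.23, or -0.76 without sham replicate 3).

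All 14 muscle genes were lower with a median of -5.55, which was -0.97 without sham replicate 1. Acta1, skeletal actin, was at 222, 4.16 and 2.07 CPM in sham, 0.912, 0.511 and 0.664 in SNI and 0.690, 4.00 and 3.67 in SNI+LDN193189, and Ckm, muscle creatine kinase, at 60.0, 1.03 and 0.834 CPM in sham, 0.304, 0.269 and 0.221 in SNI and 0.402, 0.538 and 1.03 in SNI+LDN193189. Without that library their log2 fold changes went from -5.78 to -1.16 and from -5.62 to -1.15. Of 13 ganglion genes 12 were lower with a median of -0.60, which was -0.07 without sham replicate 2. Scn10a, the sodium channel of pain fibres, was at 0.965, 11.8 and 0.377 CPM in sham, 0.243, 1.51 and 0.0554 in SNI and 0.115, 0.0598 and 0.115 in SNI+LDN193189. The log2 fold change of Scn10a without sham replicate 2 was -1.45.

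Blood and vessel genes were mostly lower as well. Of 12 lymphocyte and neutrophil genes 9 were lower with a median of -1.86, and without sham replicate 3 the median turned to 0.78. The neutrophil protein S100a9 was at 4.45, 8.68 and 156 CPM in sham, 25.4, 7.53 and 15.6 in SNI and 8.74, 6.09 and 8.65 in SNI+LDN193189 and S100a8 at 2.63 to 86.3 CPM in sham and 3.44 to 12.98 in the injured libraries, and both turned from -2.33 and -2.32 to 0.78 without sham replicate 3. All 12 perivascular macrophage genes were lower with a median of -0.64, or -0.16 without sham replicate 3. Mrc1, the mannose receptor, was at 3.11, 4.28 and 10.2 CPM in sham, 2.80, 2.48 and 3.54 in SNI and 4.31, 3.82 and 3.09 in SNI+LDN193189, and Clec10a, a lectin, at 0.268 to 0.861 CPM in sham and 0 to 0.359 in the injured libraries. Of 15 endothelial genes 11 were lower with a median of -0.14, which was -0.02 without sham replicate 3, -0.24 without sham replicate 2 and -0.22 without SNI+LDN193189 replicate 2. Cldn5, the tight junction protein of brain vessels, was at 33.1, 30.9 and 39.9 CPM in sham, 33.2, 30.9 and 21.8 in SNI and 22.6, 23.0 and 20.0 in SNI+LDN193189 (-0.47), and Kdr, the main VEGF receptor, at 29.5, 21.6 and 29.4 CPM in sham, 28.7, 27.8 and 20.9 in SNI and 19.7, 15.2 and 13.1 in SNI+LDN193189 (-0.40). In Cldn5 and Kdr the SNI+LDN193189 libraries lay under all sham libraries, while SNI replicate 1 lay inside the sham range. SNI replicate 2 also lay inside the sham range of Kdr. The log2 fold changes in SNI and SNI+LDN193189 were -0.28 and -0.66 for Cldn5 and -0.06 and -0.74 for Kdr. Of 15 ependymal genes 13 were lower with a median of -0.29, or -0.18 without sham replicate 1, among them Tmem212 at 4.81 to 9.06 CPM in sham and 3.73 to 6.31 in the injured libraries and Rarres2 at 5.90 to 12.3 CPM in sham and 3.98 to 7.44 in the injured libraries.

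Interferon response genes were higher in 16 of 17 tested, with a median of 0.35 that was 0.05 without SNI replicate 3. Mx1, annotated by RefSeq on GRCm38.p6 as a transcribed pseudogene, like Mx2, of a family of antiviral GTPases, was separated at 0.268, 0.469 and 0.538 CPM in sham, 0.669, 0.915 and 4.21 in SNI and 0.977, 1.55 and 0.917 in SNI+LDN193189 (1.80 (SE 0.628)), and so was Mx2 at 3.86, 2.93 and 3.69 CPM in sham, 4.19, 4.74 and 12.0 in SNI and 4.66, 5.14 and 6.53 in SNI+LDN193189 (0.82 (SE 0.346)). SNI replicate 3 was far above the rest in both. Irf7, the factor that amplifies the response, was at 4.08, 3.17 and 4.68 CPM in sham, 4.56, 4.31 and 16.3 in SNI and 5.11, 7.71 and 9.97 in SNI+LDN193189, and Ifit3 at 15.2, 15.2 and 17.3 CPM in sham, 15.2, 17.7 and 82.5 in SNI and 22.8, 32.7 and 34.4 in SNI+LDN193189. Without SNI replicate 3 the log2 fold changes were 1.16 for Mx1, 0.50 for Mx2, 0.54 for Irf7 and 0.48 for Ifit3.

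The receptors and targets of BMP signalling, the pathway that LDN193189 blocks, lay close to sham. BMP ligands bind type I receptors such as ACVR1 and BMPR1A with the type II receptor BMPR2, and phosphorylated SMAD proteins then induce ID and inhibitory SMAD genes. Of 13 receptors 5 were higher and 8 lower with a median of -0.06. Acvr1 was at 30.3, 26.9 and 25.8 CPM in sham, 35.9, 24.6 and 28.3 in SNI and 32.5, 28.8 and 27.5 in SNI+LDN193189 (0.10 (SE 0.108), adjusted p = 0.848), with SNI alone spanning more than the sham range. Bmpr1a was at 88.5 to 97.4 CPM in sham and 95.7 to 100.1 in the injured libraries (0.07), Bmpr2 at 271 to 305 CPM in sham and 277 to 311 in the injured libraries (0.04) and Acvrl1 at 14.7 to 22.2 CPM in sham and 12.9 to 19.5 in the injured libraries (-0.12). The differences of Bmpr2 and Acvrl1 turned to -0.00048 and 0.0951 without sham replicate 3, and that of Acvrl1 was -0.23 without sham replicate 1, -0.22 without sham replicate 2 and -0.07 without SNI+LDN193189 replicate 3. Tgfbr1, the type I receptor of TGF-beta, was separated higher at 40.2, 38.4 and 36.8 CPM in sham, 42.1, 40.3 and 44.4 in SNI and 42.1, 45.6 and 45.7 in SNI+LDN193189 (0.17), and its partner Tgfbr2 was lower at 26.0 to 41.3 CPM in sham and 22.1 to 27.2 in the injured libraries (-0.38, or -0.16 without sham replicate 3).

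Of 14 tested targets 10 were higher and 4 lower, with a median of 0.10, or 0.05 without sham replicate 3. Smad7, an inhibitory SMAD that BMP and TGF-beta induce, was separated, at 21.3, 19.4 and 21.6 CPM in sham, 27.4, 26.5 and 24.0 in SNI and 23.2, 22.9 and 29.1 in SNI+LDN193189 (0.30 (SE 0.0864, adjusted p = 0.501)). Its lowest injured library stood above its highest sham library, and the injured groups overlapped. Id1 was at 8.55, 8.27 and 10.8 CPM in sham, 9.48, 11.03 and 9.02 in SNI and 10.9, 10.3 and 10.0 in SNI+LDN193189 (0.14, 0.09 without sham replicate 1, 0.07 without sham replicate 2, 0.27 without sham replicate 3 and 0.09 without SNI replicate 2), Id3 at 20.6 to 27.2 CPM in sham and 20.4 to 24.0 in the injured libraries (-0.07) and Hey1 at 38.1 to 42.0 CPM in sham and 39.2 to 47.7 in the injured libraries (0.15). None of the receptors or targets passed with edgeR or DESeq2. At an unadjusted p under 0.05 were Tgfbr1, Smad7 and Hey1 higher and Tgfbr2 lower.

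The glycolysis, lactylation and pyroptosis genes that the series title points to differed little. Of 26 glycolysis and lactate genes 19 were higher with a median of 0.07, or 0.03 without sham replicate 3. Eno1, enolase, was separated at 425, 443 and 432 CPM in sham, 473, 460.2 and 458 in SNI and 479, 476 and 452 in SNI+LDN193189 (0.10 (SE 0.0413)), and Pgam1, the mutase before it, was at 148 to 170.2 CPM in sham and 164 to 177 in the injured libraries (0.11, or 0.18 without sham replicate 2). Ldha, which makes lactate, was at 91.0, 80.9 and 79.5 CPM in sham, 77.9, 81.1 and 69.6 in SNI and 84.1, 66.3 and 70.3 in SNI+LDN193189 (-0.16, or -0.10 without sham replicate 1), Pkm at 1241 to 1374 CPM in sham and 1349.7 to 1438 in the injured libraries (0.09), Hk2 at 4.34 to 7.24 CPM in sham and 4.48 to 6.21 in the injured libraries (-0.04) and the lactate carrier Slc16a1 at 95.8 to 116 CPM in sham and 94.0 to 111 in the injured libraries (-0.01). Of 16 lactylation enzymes 7 were higher and 9 lower with a median of -0.01. By edgeR 0 of them had an unadjusted p under 0.05, against 8.07% of all genes. The acetyltransferase Ep300, one of the proposed writers, was at 67.9 to 72.6 CPM in sham and 64.9 to 73.5 in the injured libraries (-0.02) and Aars, a lactyltransferase, at 190.2 to 217 CPM in sham and 207 to 226 in the injured libraries (0.10, 0.17 without sham replicate 2 and 0.07 without sham replicate 3).

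Of 15 inflammasome and pyroptosis genes 10 were higher and 5 lower with a median of 0.06. By edgeR 0 of them had an unadjusted p under 0.05, against 8.07% of all genes. Gsdmd, the pore-forming gasdermin, was at 1.82, 3.64 and 3.498 CPM in sham, 3.04, 2.64 and 4.10 in SNI and 3.07, 2.75 and 3.07 in SNI+LDN193189 (0.06), Nlrp3, the sensor, at 1.06 to 1.501 CPM in sham and 0.974 to 1.58 in the injured libraries (-0.05) and Aim2, a DNA sensor, at 7.53 to 7.94 CPM in sham and 7.76 to 10.96 in the injured libraries (0.27). Casp1, Casp4 and Il1b were listed at 0 in every library. Among 12 tested cytokines 5 were higher and 7 lower. Il33, an alarmin of oligodendrocytes and astrocytes, was separated higher at 157, 171 and 147 CPM in sham, 172, 176 and 198 in SNI and 180.3, 189 and 190.4 in SNI+LDN193189 (0.22 (SE 0.056, adjusted p = 0.378)), and Tgfb1 was separated lower at 7.99, 7.54 and 8.75 CPM in sham, 5.83, 6.08 and 6.28 in SNI and 5.34, 7.50 and 5.96 in SNI+LDN193189 (-0.39 (SE 0.127)). These lists measure RNA of whole cord, and neither histone lactylation nor death of neurons was measured.

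In smaller lists, immediate early genes were lower in 13 of 17, with Nr4a2 at 5.36 to 13.7 CPM in sham and 3.83 to 7.30 in the injured libraries (-0.84) and Egr2, which is also a Schwann cell factor, at 2.601 to 20.2 CPM in sham and 1.34 to 4.51 in the injured libraries (-1.75). Without sham replicate 3 these differences were -0.40 and -0.76. Among 13 polyamine genes 9 were higher and 4 lower. Smox, which oxidises spermine, lay lower beside Sat1, at 66.3, 74.5 and 61.3 CPM in sham, 61.6, 54.9 and 59.1 in SNI and 57.1, 55.1 and 67.1 in SNI+LDN193189 (-0.19, or -0.11 without sham replicate 2), while Oaz1, the antizyme that limits polyamine synthesis, was separated higher at 111, 116 and 118 CPM in sham, 121, 119 and 124 in SNI and 132, 119 and 129 in SNI+LDN193189 (0.11). Kcnj10, the potassium channel with which astrocytes clear potassium, was at 999, 1019 and 916 CPM in sham, 1151, 1075 and 1008 in SNI and 1061, 1064 and 1007 in SNI+LDN193189 (0.12, or 0.07 without sham replicate 3), with SNI+LDN193189 replicate 3 and SNI replicate 3 inside the sham range.

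Of the lists not yet described, most had medians near that of all genes. Precursors of oligodendrocytes had a median of 0.02 over 9 genes, motor neuron genes 0.10 over 11 (0.02, 0.19 and 0.0097 without sham replicate 1, 2 or 3 and 0.06 without SNI+LDN193189 replicate 1), inhibitory transmission -0.00 over 19, glutamate transmission -0.03 over 20, cholesterol synthesis 0.02 over 18, antigen presentation -0.03 over 15, imprinted growth genes -0.07 over 11 and ion transport of glia 0.03 over 11. Pericyte and smooth muscle genes had a median of -0.23 over 12, which was 0.04 without sham replicate 3 and -0.38 without sham replicate 2, erythrocyte genes one of -0.36 over 9, which was -0.15 without sham replicate 3 and -0.55 without sham replicate 1, and dividing cells one of -0.29 over 14, which was 0.20 without sham replicate 3 and -0.45 without sham replicate 2. Only 2 adipocyte genes were tested. Glucocorticoid response genes, of which 12 of 18 were higher, lay on opposite sides of sham in the injured groups, with medians of -0.08 in SNI and 0.29 in SNI+LDN193189.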

How the data were processed

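RNA from 9 spinal cord libraries was selected by poly(A) and read as paired ends from strand-marked libraries, per the labels' protocols, which speak of cell lines although the labels name spinal cord. The deposited table holds whole-number read counts per gene symbol made by the authors, and the submitters' processing notes name the build mm10. The aligner, counter and annotation are not given in the sources used here. A deposited FPKM table was not used. Of 40879 symbols 14594 were 0 in every library, among them some abundant genes, so a gene at 0 is described only as listed at 0. In each library 70.7 to 71.8% of the counts above 0 were even, a feature the labels do not account for.

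Counts were filtered by filterByExpr (18245 genes), scaled by TMM (factors 0.984 to 1.02) and fitted as 3 group means with edgeR 4.0.16 (quasi-likelihood F test, robust, R 4.3.3), with a biological coefficient of variation of 0.132. The SE is the log2 fold change over the square root of F. The median SE was 0.102. On simulated counts of 18002 genes the test of injured against sham recovered 53% of planted log2 changes of 0.5 and 89% of those of 1, and 7.79% of calls were false. Changes were planted in genes of at least 1 CPM and were equal in both injured groups. No simulated library carried RNA of attached tissue, so these rates may not hold for the real libraries. Alternatives were DESeq2 1.42.0, limma-voom (limma 3.58.1) with sample weights, other scalings and filters, a replicate block, the 6 injured libraries as a single group and leaving out each library.

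The members and the 44 gene lists (719 distinct genes) were chosen with earlier results of these data known, so lists carry counts and medians and no test. Genes named are the called ones, filled to 12 per direction with separated genes of the smallest p and at least 1 CPM in the injured or sham mean, up to 4 members per list taken in order of p, and genes chosen by name. Some genes that this rule selects are not reported here. Snap25, Mbp, Prx, Pmp2 and Myh4 are named as cell markers, and Hspa5 and Creld2 for their promoters. Gene positions and promoters are from RefSeq on GRCm38.p6. RefSeq promoter windows start 250 bases before the gene start.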

Additional observations from a re-analysis of the deposited data

Results flagged for a closer look

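The difference of Mmp14 between the injured groups was itself past the threshold, at a log2 fold change of -0.77 in SNI+LDN193189 against SNI.

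In 10 of the 117 genes named, the highest of the 6 injured libraries lay far from the others by Dixon's criterion on the gap over the range, which chance alone meets in about 1 of 20 groups. SNI replicate 3 was the high library in Ifit3 (82.5 CPM), Mx1 (4.21), Mx2 (12.0) and Gsdmd (4.10). SNI replicate 2 was high in Scn10a (1.51). SNI+LDN193189 replicate 2 was high in Igf1 (12.4), Pkm (1438) and Thbs4 (1.31), and SNI+LDN193189 replicate 3 in Lpl (9.91) and 1700047M11Rik (43.7).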

How the results depend on the processing

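The count of called genes depended on the tool and the library left out. DESeq2 called 12 higher and 49 lower, edgeR without a filter on low counts 5 and 22, and limma-voom 0 and 2. With the 6 injured libraries as a single group 0 genes were called, 1519 had an unadjusted p under 0.05 by edgeR, and the lowest adjusted p was 0.0711. Leaving out a library gave 0 to 1 higher and 0 to 60 lower, the 60 without sham replicate 1 and the 0 without SNI+LDN193189 replicate 3. Separated genes, under alternatives chosen after seeing the data, numbered 298 higher and 243 lower with DESeq2 size factors and 271 and 301 with library totals only. With a library left out they ranged from 386 to 1464 higher and from 321 to 1045 lower, both highest without sham replicate 2, against 713 and 956 without sham replicate 1 and 664 and 663 without sham replicate 3. Leaving out any library loosens the condition, and why replicate 2 gave the most was not tested. Genes on the same side of sham in both injured groups stayed within 1.5 times the main count in each alternative run, at 5341 to 8562 higher and 5721 to 9512 lower.

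With the replicate number as a block edgeR called 0 higher and 3 lower (Bmal1, Mmp14 and Thbs4). Deviations of same-numbered libraries correlated at -0.203 to 0.255, above 0.1 in 3 of 9 pairs. Those of libraries with different numbers correlated at -0.247 to 0.244. So few pairs cannot decide whether the numbers pair the libraries.

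Of 1869 recomputed log2 fold changes of named genes 18 turned sign, in 10 genes. Slc16a1 was 0.00142 with limma-voom. With a library left out the ranges were -0.229 to 0.0951 for Acvrl1, -0.00048 to 0.0855 for Bmpr2, -0.0432 to 0.00807 for Ep300, -0.20 to 0.224 for Gsdmd, -0.171 to 0.231 for Hk2, -0.154 to 0.0479 for Id3, -0.184 to 0.0516 for Nlrp3, -0.0746 to 0.0628 for Slc16a1, -2.87 to 0.785 for S100a8 and -2.88 to 0.777 for S100a9. The cause was not tested. Depth differed by a factor of 1.11 at most, and the median SE over all genes was 0.102.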
